A study of Mus musculus with 4 samples.

Results

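Expression in immortalized mouse fibroblasts was compared between 2 arrays of cells given a miR-200 family member (miR-141 or miR-200c) and 2 control arrays, which together make up all 4 arrays of the study. Cells of the first control received the transfection reagent without any miRNA (its transfection field reads none, and it is called transfectant only here), and cells of the second received a control miRNA. The miR-200c array is so named in its title and its transfection field, while its description reads only miR-200. Transfection ran for 48 h in every culture, and all 4 cultures were exposed to 400 µM hydrogen peroxide during the last 2 h, so neither side shows unstressed cells. Labelled cRNA was hybridised to Illumina bead arrays. The labels name no strain, donor animal or passage for the line, and each treatment has 1 array. The 2 arrays of a side are therefore different treatments, not replicates of one, and their number limits the precision of every value below.

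After joint normalization 7734 of 17711 annotated genes were detected (detection p under 0.01) on at least 1 array, and 6485 on all 4. Counts of genes detected per array ranged from 6989 with miR-200c to 7152 with transfectant only. Raw signals were brightest on the transfectant only array (mean 246) and dimmest on the control miRNA array (mean 151), with both miRNA arrays between them. Of 12 fibroblast markers, 7 were detected, Vim, Fn1, Col1a1, Dcn, Fbln2, Pdgfrb and S100a4, whereas Col1a2, Col3a1, Thy1, Pdgfra and Lum were below detection on all 4 arrays. The defining genes of macrophages (Ptprc, Adgre1, Itgam, Lyz2), endothelium (Pecam1, Cdh5) and T cells (Cd3d, Cd3e, Cd4) were below detection everywhere. Of 9 macrophage markers on the array, Cd14 alone was detected, at 6.53 and 6.89 in the controls and 7.48 and 7.68 with the miRNAs.

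MicroRNAs of the miR-200 family pair through bases 2 to 8, the seed, with sites in messenger RNAs and lower their stability and translation. Epithelial cells make these miRNAs in quantity, and fibroblasts normally make little of them. Their best known targets are Zeb1 and Zeb2, zinc finger repressors that bind E-box motifs in promoters of epithelial genes, and the loss of the family is a mark of epithelial-mesenchymal transition. The mature sequences below, from RefSeq (build GRCm38.p6), show how alike the transfected family members are, with the seed in capitals. The labels do not say which arm was given, and the 3p arm is shown because the family seeds lie there.
mmu-miR-141-3p: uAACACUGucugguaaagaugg
mmu-miR-200c-3p: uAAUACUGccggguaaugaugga
Mir141 lies at chr6:124717917-124717938 and Mir200c at chr6:124718324-124718346, both on the minus strand. Counted from the 5′ end, miR-200c departs from miR-141 by C4U inside the seed and by U9C, U11G and A17U outside it. RefSeq gives miR-200a the seed of miR-141, and miR-200b and miR-429 the seed of miR-200c.

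All levels are normalized log2 signals of the brightest probe of a gene. A further probe of a gene is called apart where its sides do not overlap, at any size, and the 1.5-fold rule below was not applied to it. The gap of a gene is the distance between the nearest arrays of opposite sides, that is the lower miRNA value minus the higher control value, or the reverse for genes below the controls. Both miRNA arrays lay above both controls by any amount in 1756 genes (22.7% of 7734) and below both in 1598 (20.7%), and the sides overlapped in 4380. A gap of 1.5-fold or more (0.585 on the log2 scale), with detection on both arrays of the brighter side, was found in 94 genes above the controls (1.22%) and 108 below them (1.4%). The median gap was 0.84 among the 94 and 0.80 among the 108. Gaps of 2-fold or more numbered 29 and 28, and gaps of 4-fold or more numbered 3 and 0. Over the 6485 genes detected everywhere, the standard deviation of the difference was 0.333 between the miRNA arrays and 0.301 between the controls, each a difference of single arrays, and 0.329 between the sides, a difference of means of 2 arrays. The split of 46.5% higher among called genes became 59.5% with median scaling, which called 66 higher and 45 lower. With 1 array left out, the rule asks for fewer orderings, and the counts were 196 higher and 165 lower without transfectant only, 216 and 321 without control miRNA, 293 and 328 without miR-141, and 170 and 226 without miR-200c.

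**Figure D1:**
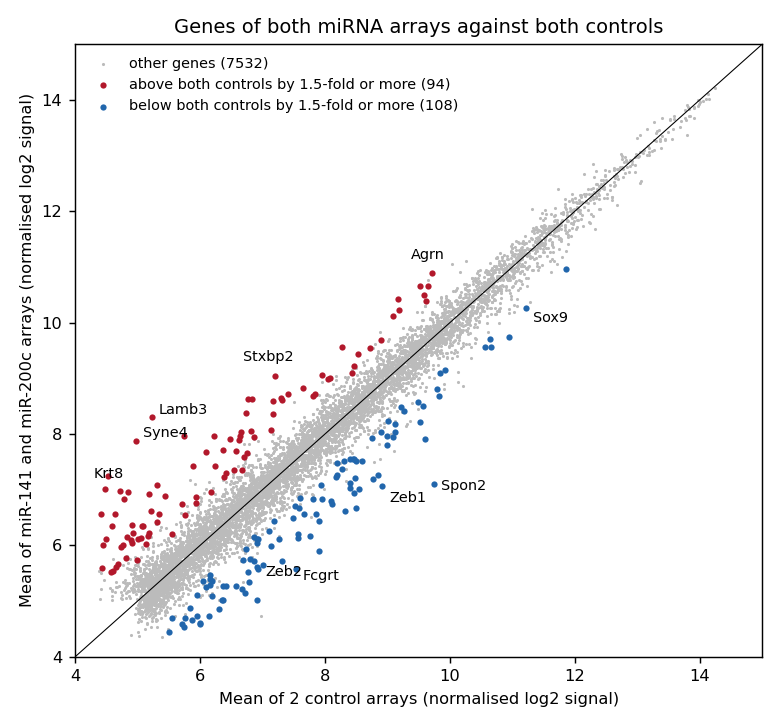
Mean normalized log2 signal of both miRNA arrays (vertical) against that of both controls (horizontal), 1 point per gene, for 7734 detected genes. Red points mark the 94 genes above both controls by 1.5-fold or more, blue points the 108 below, and the line marks equal means. Lamb3, Syne4 and Krt8 stand far above the line at low control signal, and Spon2 stands farthest below it.

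A side-by-side fit with limma, adjusted by Benjamini-Hochberg over all 7734 genes, called 35 genes higher (0.453%) and 36 lower (0.465%) at an adjusted p under 0.05. All 35 and all 36 lay among the genes apart by 1.5-fold. The spread in this fit is the difference between the miRNAs and between the controls, not that of repeated cultures, so a gene on which miR-141 and miR-200c differ in size is less readily called. Values below detection entered the fit as measured. The unadjusted p was under 0.05 in 979 genes. An exact permutation test of 2 arrays against 2 cannot give a p below 0.333. Without transfectant only the limma fit called 1 gene and without control miRNA 0, although 669 and 974 genes had an unadjusted p under 0.05, and it called 195 without miR-141 and 65 without miR-200c. The calls given below therefore need both controls in the fit.

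Zeb1 and Zeb2, the repressors named above, lay below both controls with each miRNA. Zeb2 was at 6.95 with transfectant only and 6.91 with control miRNA, and at 5.63 under miR-141 and 5.51 under miR-200c. Its sides differed by -1.36 with a standard error (SE) of 0.175, a fall called by limma (adjusted p = 0.0193), and miR-200c minus miR-141 was -0.12. Zeb1 was at 9.05 and 8.78 in the controls, 7.64 under miR-141 and 6.50 under miR-200c. The Zeb1 gap was 1.14, yet its limma adjusted p was 0.0562, since miR-200c minus miR-141 came to -1.15 and entered the error (SE 0.338). Of 36 genes on the array listed as published targets of miR-200b, miR-200c or miR-429, 23 were detected, and 3 lay below both controls by 1.5-fold, Zeb1, Zeb2 and Klf9. By that size 1.4% of all genes lay below. Klf9, a Krüppel-like transcription factor, was at 9.85 and 9.74 in the controls and lay below both with a gap of 0.74 (side difference -0.99, limma adjusted p = 0.0721). At any size 13 of the 23 lay below both controls and 1 above, against 20.7% and 22.7% of all genes. The median side difference was -0.64, or -0.41 with undetected values at the detection bound, against 0.00 for all genes, and -0.17 over all 36 with undetected genes included. The median was unequal between the miRNAs, at -0.13 for miR-141 and -0.88 for miR-200c against the mean of the controls. Crtap, part of a collagen prolyl hydroxylase complex, was at 8.94 and 8.81 in the controls, 8.94 under miR-141 and 6.16 under miR-200c. Ppm1f, a protein phosphatase gene, was at 10.18 and 10.23, then 10.07 and 7.66, and Sec23a, a COPII coat gene, was at 8.23 and 8.45, then 8.31 and 6.45. Fhod1, a formin gene, was at 8.45 and 8.66, then 8.37 and 6.68, and the median member Msn, the moesin gene, was at 11.28 and 10.86, then 11.05 and 9.81. In these 5, chosen after their values were seen, miR-200c lay far below both controls and miR-141 within them or just below. Of 18 detected targets listed for miR-141 or miR-200a, 2 (Zeb1 and Zeb2) were below by 1.5-fold, with a list median of -0.21. At any size 5 of the 18 were below, not far from the 20.7% of all genes. Mapk14, the gene of stress kinase p38 alpha, was at 9.11 and 8.88 in the controls, 7.97 under miR-141 and 8.96 under miR-200c, so the sides overlapped. Keap1, the adaptor that directs NRF2 to degradation, also overlapped, at 9.20 and 9.36 against 9.36 and 9.09. No target database was used, and the lists hold targets recalled from the literature. These lists and all lists below were drawn up with earlier results of these data known. Their counts beside shares of all genes are therefore descriptive and no test of a list.

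Further mesenchymal transcription factors followed the same order of sides in part. Of 15 detected genes on that list, 10 lay below both controls by any size (20.7% of all genes did) and 4 by 1.5-fold (1.4% of all genes). With median scaling 2 were. Besides Zeb1 and Zeb2 the 4 were Sox9, a factor of cartilage and progenitor cells, and Tbx3, a T-box repressor. Sox9 was at 11.37 and 11.05 in the controls and 10.23 and 10.29 with the miRNAs, with a limma adjusted p of 0.0697. Tbx3 was at 8.08 and 8.12 against 7.35 and 6.22 (limma adjusted p = 0.132). Twist2, at a side difference of -0.59, Tcf4 at -0.68 and Prrx1 at -0.55 lay below both controls by less than 1.5-fold. The exception was Snai3, a lesser studied Snail family member, which was undetected in both controls at 4.66 and 4.51 and was at 6.29 and 6.42 with the miRNAs. Its signal was at least 1.95-fold higher with either miRNA, and limma called it higher (difference 1.77, SE 0.179, adjusted p = 0.00735). Snai2, at a difference of -0.05, overlapped, and Snai1 was below detection on all 4 arrays.

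The other end held genes of epithelial cells. Where a probe was below detection on one side, the fold is a lower bound, taken against the higher of its own value and the dimmest detected signal of that array (5.29 to 5.37 on the log2 scale). A limma p printed beside such a bound, here and elsewhere, belongs to the difference of measured values, undetected ones included. It does not test the bound. Krt8, a keratin of simple epithelium, was at 4.44 and 4.51 in the controls, both undetected, and at 6.18 under miR-141 and 7.83 under miR-200c, at least 1.81-fold higher (limma adjusted p = 0.0478). Krt7, another simple epithelial keratin, was at 4.80 and 4.90 against 6.10 and 7.81, at least 1.70-fold, and was not called by limma (adjusted p = 0.0876). The keratins thus lay apart with each miRNA but farther with miR-200c. Cldn4, a tight junction claudin, was at 4.64 and 4.80 against 6.44 and 7.50, at least 2.16-fold higher (limma adjusted p = 0.0233). Map7, which stabilises microtubules in epithelial cells, was at 4.77 and 4.78 against 6.32 and 7.36, at least 1.98-fold higher (limma adjusted p = 0.0293). Llgl2, a polarity protein of the basolateral membrane, was the member measured on all 4 arrays with the widest gap, at 5.65 and 5.85 against 7.35 and 8.58 (2.83-fold between the nearest arrays, limma adjusted p = 0.0372). Spint1, an inhibitor of membrane serine proteases, was undetected in the controls at 5.03 and 5.13 and was at 5.72 and 6.98, at least 1.31-fold higher and not called by limma (adjusted p = 0.174).

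These 6 are the epithelial members apart by 1.5-fold in measured values, a size that the bound of Spint1 does not reach, and 0 were below the controls by that size. Over all genes 1.22% lay above and 1.4% below by that size. At any size 10 detected members lay above both controls and 1 below, against 22.7% and 20.7% of all genes. Of 42 listed epithelial genes on the array, 14 were detected, 7 with transfectant only, 8 with control miRNA and 14 with each miRNA. Since 6 of the 14 were detected on the miRNA arrays alone, they entered through the side where they were bright. The counts above and the median over the 14 (0.90, or 0.44 for miR-141 and 1.36 for miR-200c against the mean of the controls) carry that choice. In a bulk extract, more cells with a transcript and more of it per cell cannot be told apart. Over all 42, with the 28 undetected members included, the median side difference was 0.06. The summed raw signal of the 14 was 1688 with transfectant only, 1059 with control miRNA, 1772 with miR-141 and 2724 with miR-200c. These sums are not normalized and carry the brightness of each array, whose raw means were 246, 151, 198 and 190 in the same order. Detected members with smaller or no gaps were Krt19 at a side difference of 1.18, the desmosomal plaque gene Jup at 0.62, Muc1 at 0.45, Pkp2 at 0.31, Pkp1 at 0.15, Patj at 0.03, Cldn1 at -0.14 and Evpl at -0.16. Cdh1, which encodes E-cadherin, was below detection on all 4 arrays, as were Epcam, Krt18, Ocln, Cldn3 and Cldn7. At a looser detection p of 0.05, 2 of the 28 undetected members, Cdh1 and Krt18, had a probe detected with both miRNAs and in neither control, and 0 had the reverse. Any probe of a gene could count here. Of 17711 annotated genes, by the brightest probe alone, 110 were detected with both miRNAs only and 119 in both controls only at that threshold. The count of 2 is too small to set these members apart from other genes. That Cdh1 probe was at 4.65 and 4.60 in the controls and 4.96 and 5.13 with the miRNAs, with detection p of 0.0880, 0.159, 0.0343 and 0.0212, and its other probe was at 4.47 and 4.56 against 4.43 and 4.46. Epithelial regulators were no more visible, since 12 of 15 on the array, among them Esrp1, Esrp2, Grhl2, Ovol1 and Ovol2, were undetected, and the other members (Klf5, Trp63 and Foxa2) had no gap of 1.5-fold. The mesenchymal filament gene Vim was at 13.59 and 13.50 in the controls and 13.42 and 13.18 with the miRNAs, a gap of 0.08, and Fn1 had a gap of 0.05.

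The widest gap of all belonged to Lamb3, which encodes the beta chain of laminin-332 in epithelial basement membranes. Lamb3 was undetected with transfectant only (raw signal 66.8), at 5.46 with control miRNA, at 8.07 on the miR-141 array and at 8.52 on the miR-200c array, at least 6.14-fold higher (difference 3.07, SE 0.234, limma adjusted p = 0.00332). Agrn, the basement membrane proteoglycan agrin, was at 9.63 and 9.80 against 10.72 and 11.04 (limma adjusted p = 0.0411). Lamb3 and Agrn were the sole members of 14 detected laminin and basement membrane genes with a 1.5-fold gap (3 members with median scaling), and the list median was -0.08. By that size 1.22% of all genes lay above the controls. Lama3, the alpha chain partner of Lamb3 in laminin-332, was below detection on all 4 arrays.

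Among other genes with wide gaps, Syne4 encodes nesprin-4, which ties the outer nuclear membrane to kinesin. Syne4 was undetected at 5.07 and 4.89 in the controls and was at 7.48 and 8.27 with the miRNAs, at least 4.44-fold higher (limma adjusted p = 0.00712). Ckmt1, a mitochondrial creatine kinase, was undetected at 4.67 and 4.39 and was at 7.15 and 7.35, at least 3.53-fold higher (limma adjusted p = 0.00332). Ckmt1 reached nearly the same level with either miRNA. Lmntd2, named for its lamin tail domain, was at least 2.11-fold higher (limma adjusted p = 0.00796). Syne4 and Lmntd2 were the members with a 1.5-fold gap among 12 detected genes of the nesprin and lamina list, whose median was 0.11, and the nesprin gene Syne3 was at a difference of -0.23. Such a gap above the controls was found in 1.22% of all genes.

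Secretory vesicle genes with a gap were Stxbp2 (Munc18-2) and Stx3 (syntaxin 3), binding partners in fusion at the apical membrane. Stxbp2 was at 7.27 and 7.14 in the controls and 8.81 and 9.28 with the miRNAs (2.91-fold between the nearest arrays, limma adjusted p = 0.0114). Stx3 was at 6.62 and 6.68 against 7.56 and 8.50 (limma adjusted p = 0.0822). The remaining 12 of 14 detected vesicle genes had no 1.5-fold gap, the list median was -0.03, and 1 member was apart with median scaling. A 1.5-fold gap above the controls was found in 1.22% of all genes.

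Of the genes detected on all 4 arrays, the widest upward gap was that of Tmem130, a transmembrane protein gene, at 6.23 and 6.22 against 7.90 and 8.03 (3.20-fold, limma adjusted p = 0.00735). Ripk4, a kinase of epidermal differentiation, was at 7.26 and 7.32 against 8.53 and 8.76. Edn1, the precursor of the vasoconstrictor endothelin-1, was at 6.41 and 6.56 against 8.04 and 7.77. Both had a limma adjusted p of 0.0193 and a gap of 1.21. Surf6, a nucleolar protein gene, was at 5.94 and 5.83 against 7.05 and 7.80, and Dtnb, the dystrobrevin beta gene, was at 8.17 and 8.36 against 9.68 and 9.43. Ptprk, a receptor phosphatase of cell contacts, was at 9.14 and 9.23 against 10.17 and 10.26. Surf6, Dtnb and Ptprk were each called higher by limma, at adjusted p of 0.0411, 0.0271 and 0.0435. The remaining genes of the 15 widest were Plpp6, Cdkl2, Tprn, Nme3, Tmem238, Psca and Pick1, with gaps of 0.98 to 1.07. Of these, limma called all but Psca, whose controls differed by 0.49 and whose miRNA arrays differed by 1.21 (adjusted p = 0.0681).

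**Figure D2:**
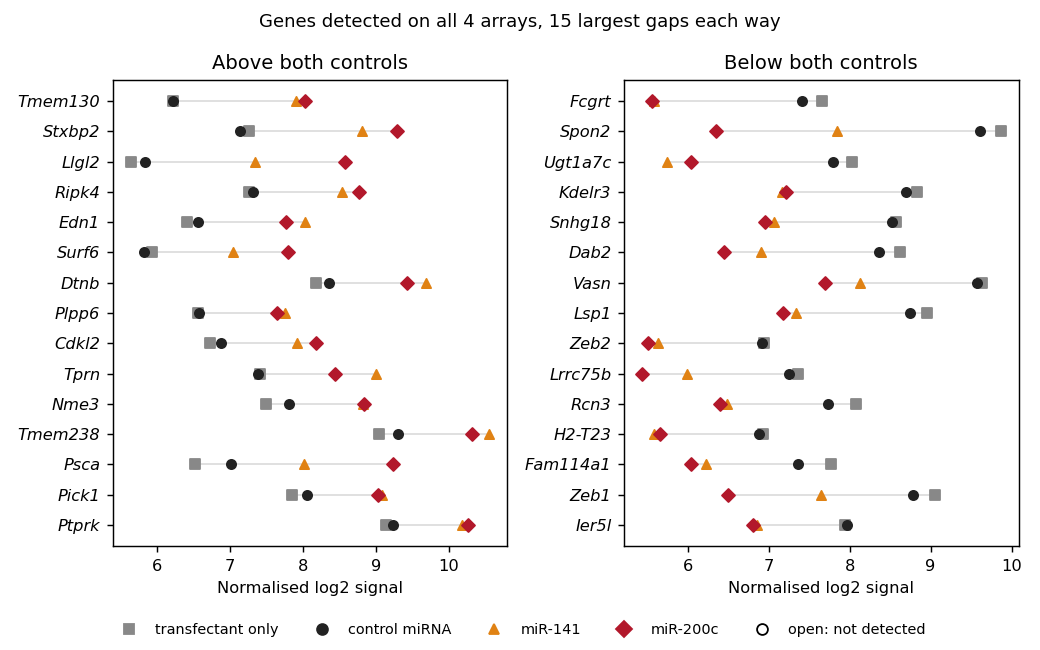
Normalized log2 signal (horizontal) on each array for the 15 genes with the widest gap in each direction among those detected on all 4 arrays, 1 row per gene, ordered by gap. The control symbols lie close together and the miRNA symbols lie to their right in the left panel and to their left in the right panel. Llgl2, Spon2 and Zeb1 show miR-200c farther out than miR-141, whereas Fcgrt and Kdelr3 show both miRNAs at nearly the same level.

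Cytokine genes held members on both sides. Il24, an IL-10 family cytokine, was undetected at 4.41 and 4.41 and was at 6.01 and 7.12 with the miRNAs, at least 1.60-fold higher (limma adjusted p = 0.0293), and another detected probe of Il24 lay apart in the same direction. Cxcl16, a membrane-bound chemokine, was at 5.27 (undetected) and 5.36 against 6.56 and 7.61 (limma adjusted p = 0.0484), again with another probe apart in the same direction. Tnfaip3, the NF-kB inhibitor A20, was at 7.37 and 6.97 against 8.62 and 8.11, and Lcn2, a siderophore-binding protein, was undetected in the controls at 4.56 and 4.67 and was at 5.44 and 5.65, at least 1.07-fold higher. Neither was called by limma (adjusted p = 0.0680 and 0.0675). Cxcl12, the ligand of CXCR4 made by stromal cells, lay the other way at 11.02 and 10.88 against 9.44 and 10.03 (limma adjusted p = 0.0592). On its other detected probe the side means differed in the same direction, but the sides overlapped. In all 4 of 20 detected members lay above and 1 below by 1.5-fold in measured values, a size that the bound of Lcn2 does not reach, and the list median was 0.24 (0.16 from bounds for undetected values). Over all genes 1.22% lay above and 1.4% below by that size. With median scaling the members below numbered 0. The interferon response list, of which 7 of 24 on the array were detected, had 0 members apart by 1.5-fold and a median of 0.16.

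Below the controls, matrix genes of fibroblasts stood out. Spon2, a secreted spondin, was at 9.86 and 9.61 in the controls, 7.84 under miR-141 and 6.35 under miR-200c. Its side difference of -2.64 (SE 0.410) was the largest downward among the named genes, and limma called it lower (adjusted p = 0.0328). Ccn5, a matricellular protein of the CCN family, was at 8.52 and 8.45 against 6.80 and 7.63, and is the sole gene among the 108 that lay 1.5-fold farther with miR-141 than with miR-200c. Collagen chain genes with a 1.5-fold gap were Col6a2 at 6.69 and 6.67 against 5.93 and 5.55, Col16a1 at 9.17 and 9.06 against 8.36 and 7.72, and Col5a1 at 11.86 and 11.84 against 11.15 and 10.77. Ccn4 completed the group of 6 lower members, at 10.60 and 10.68 against 9.48 and 9.92. Limma called Spon2 alone among these 6 (adjusted p = 0.0835 for Ccn5, 0.0822 for Col6a2 and 0.0892 for Col16a1). At any size 22 of 32 detected matrix genes lay below both controls and 1 above, against 20.7% and 22.7% of all genes. By 1.5-fold, 1.4% of all genes lay below and 1.22% above. The list median was -0.55, and the list was drawn up with earlier results of these data known. The 6 lower members became 1 under median scaling and 4 when the authors' values were used, where the list medians were -0.58 and -0.51. For control miRNA minus transfectant only, the median of the same genes was -0.17. Loxl4, a lysyl oxidase, was the member above, at 8.02 and 8.14 against 8.91 and 9.11, with 2 further probes apart in the same direction. Col1a1, at a side difference of -0.61, had a gap of 0.13, and Dcn, at 1.05, overlapped.

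Genes that fold, modify and export collagen in the endoplasmic reticulum (ER) lay low as well. Of 28 detected members, 5 lay below by 1.5-fold and 0 above, against 1.4% and 1.22% of all genes. At any size 17 lay below and 3 above, against 20.7% and 22.7%. The list was drawn up with earlier results of these data known, so these shares only describe it. Kdelr3, a receptor that returns escaped ER proteins, was at 8.84 and 8.70 in the controls and 7.16 and 7.22 with the miRNAs (difference -1.58, SE 0.176, limma adjusted p = 0.0114), with another probe apart in the same direction. Fkbp7, an ER prolyl isomerase, was at 6.76 and 6.68, then 5.70 under miR-141 and 4.58 under miR-200c, where it was undetected (limma adjusted p = 0.0797). Creb3l1, a membrane-bound transcription factor that drives collagen genes in bone, was at 5.62 and 6.12 in the controls and was undetected with both miRNAs, at least 1.19-fold lower (limma adjusted p = 0.0481). P3h4, part of a collagen hydroxylase complex, was at 8.27 and 8.29 against 7.39 and 7.36, and the ER isomerase gene Fkbp14 at 8.60 and 8.33 against 7.66 and 7.45. Neither of the last pair was called by limma (adjusted p = 0.0657 and 0.0822). Rcn3, an ER calcium-binding protein outside the list, was at 8.08 and 7.73 against 6.49 and 6.40 (limma adjusted p = 0.0193). The list median was -0.34, and for control miRNA minus transfectant only it was 0.05. With median scaling 3 members were below by 1.5-fold.

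Growth factor pathway genes with gaps included Vasn, a membrane protein that traps TGF-beta, at 9.63 and 9.57 against 8.13 and 7.70 (difference -1.69, limma adjusted p = 0.0137). Pdgfrb, the PDGF receptor beta of mesenchymal cells, was at 6.80 and 6.54 and was undetected with both miRNAs, at least 2.25-fold lower (limma adjusted p = 0.0193). Tgfb1, the ligand, was at 6.88 and 6.97 against 6.07 and 6.15 (limma adjusted p = 0.0836). These 3 of 23 detected members are named because they were below by 1.5-fold (2 with median scaling), so their shared sign does not speak for the list. By that size 0 were above, and over all genes 1.4% lay below and 1.22% above. At any size 9 lay below both controls and 2 above, against 20.7% and 22.7% of all genes, and the list median was -0.27. In the same list Tgfbr2, the type II TGF-beta receptor, was at a side difference of 0.52. Egr3 and Egr2, zinc finger factors induced within minutes of growth factor or stress signals, were the members apart among 21 detected immediate early genes. With median scaling 1 member was apart. Over all genes 1.4% lay below by 1.5-fold. Egr3 was at 8.50 and 8.13 against 7.07 and 6.16 (limma adjusted p = 0.0481), and Egr2 at 8.46 and 7.76 against 7.06 and 6.43 (limma adjusted p = 0.0835). For Egr2 the controls themselves differed by -0.70 (control miRNA minus transfectant only), about the size of its gap. Fos, Jun, Atf3 and Myc overlapped or had gaps under 1.5-fold, and the list median was -0.06.

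Cell surface and cytoskeletal genes below the controls were Itga11, a collagen-binding integrin of fibroblasts, and Rhob, a small GTPase of endosomes. Itga11 was at 6.47 and 6.23 and undetected with both miRNAs, at least 1.82-fold lower (limma adjusted p = 0.0231). Rhob was at 8.46 and 8.15 against 7.46 and 7.56 (limma adjusted p = 0.116). These were 2 of 35 detected actin and adhesion genes, with 0 above by 1.5-fold and a median of -0.13 (0.02 under miR-141, -0.32 under miR-200c), and 1 was apart with each other normalization. Over all genes 1.4% lay below and 1.22% above by 1.5-fold. S100a4, a calcium-binding protein also known as fibroblast-specific protein, was at 9.69 and 9.35 against 8.42 and 7.99 (limma adjusted p = 0.0411). Lsp1, an actin-binding protein, was at 8.95 and 8.75 against 7.34 and 7.18 (limma adjusted p = 0.0114), and the endocytic adaptor gene Dab2 was at 8.62 and 8.36 against 6.91 and 6.45 (limma adjusted p = 0.0137).

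**Figure D3:**
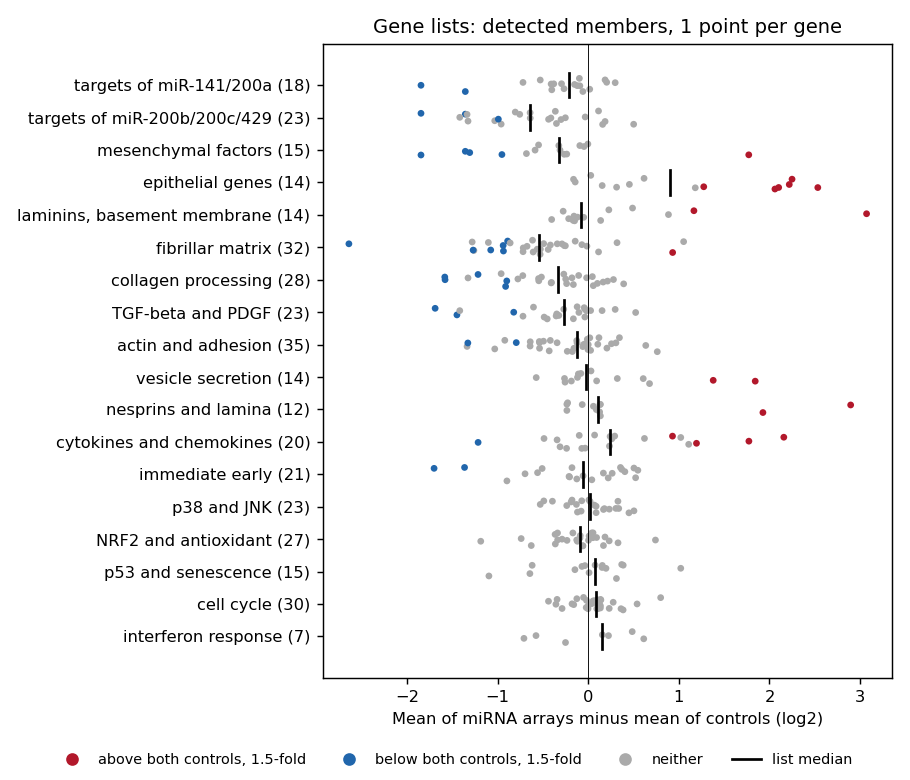
Side difference (mean of both miRNA arrays minus mean of both controls, log2, horizontal) of each detected gene in 18 lists, with the number of detected genes in brackets, 1 point per gene and a bar at the list median. Red and blue points mark genes apart by 1.5-fold, and grey points the rest. Blue points lie in the target, mesenchymal, matrix, collagen processing, TGF-beta, actin and immediate early lists and for 1 cytokine gene, and the p38, NRF2, p53, cell cycle and interferon lists hold grey points alone.

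The widest downward gap among all genes was that of Fcgrt, the heavy chain of the neonatal Fc receptor, at 7.66 and 7.41 against 5.59 and 5.55 (difference -1.96, SE 0.183, limma adjusted p = 0.00712). Ugt1a7c, a glucuronosyltransferase whose locus shares its last exons among several transcripts, was at 8.03 and 7.79 against 5.74 and 6.04 (limma adjusted p = 0.00712), with 2 further probes apart in the same direction. H2-T23, a nonclassical MHC class I gene, was at 6.93 and 6.88 against 5.58 and 5.65 (limma adjusted p = 0.0193), and related class I genes may share its probe. The non-coding RNA gene Snhg18 was at 8.58 and 8.52 against 7.06 and 6.95 (limma adjusted p = 0.0114). In each of these genes the miRNA arrays lay within 1.5-fold of each other. Lrrc75b, Fam114a1 and Ier5l had gaps of 1.26, 1.14 and 1.10 and were called lower by limma (adjusted p = 0.0231, 0.0247 and 0.0323).

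Detection on one side alone was found for 83 genes with both miRNAs (1.07%) and for 91 genes in both controls (1.18%). Most of these were dim, with median mean levels of 5.67 and 5.55 on the detected side. Of the 83, 67 had a detection p under 0.05 on at least 1 control array, and of the 91, 81 had one on at least 1 miRNA array. By their bounds, 14 and 10 of them were at least 1.5-fold apart. On the miRNA side, beyond Syne4, Ckmt1, Cldn4, Lmntd2, Map7, Snai3 and Krt8, the largest bounds were those of Lrba, a vesicle trafficking protein gene, at least 2.70-fold, Marchf9, a membrane ubiquitin ligase gene, at least 1.83-fold, and Pnpla3, a lipid droplet acylhydrolase gene, at least 1.73-fold. All 3 were called higher by limma (adjusted p = 0.0109, 0.0193 and 0.0478).

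On the control side the largest bound was that of Aldh1a3, which makes retinoic acid from retinaldehyde. Aldh1a3 was at 7.03 and 6.81 in the controls and undetected at 5.06 and 4.98 with the miRNAs, at least 2.71-fold lower (difference -1.90, SE 0.183, limma adjusted p = 0.00712). Lrp4, a receptor of the LDL receptor family, was at least 2.23-fold lower, Clec2d, a C-type lectin gene, at least 1.93-fold, and Notch1, the Notch receptor, at least 1.87-fold, with limma adjusted p of 0.0193, 0.0293 and 0.0193. Notch1 was at 6.27 and 6.35 in the controls against 5.01 and 4.72. Foxs1, a forkhead factor, was at least 1.69-fold lower (limma adjusted p = 0.0171). The other members of the 10 largest bounds were Ankrd12, Arhgef19 and Rftn2, at least 1.68-fold, 1.67-fold and 1.60-fold lower and not called by limma (adjusted p = 0.0694, 0.0664 and 0.0822). For Rftn2, another detected probe did not share the direction.

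**Figure D4:**
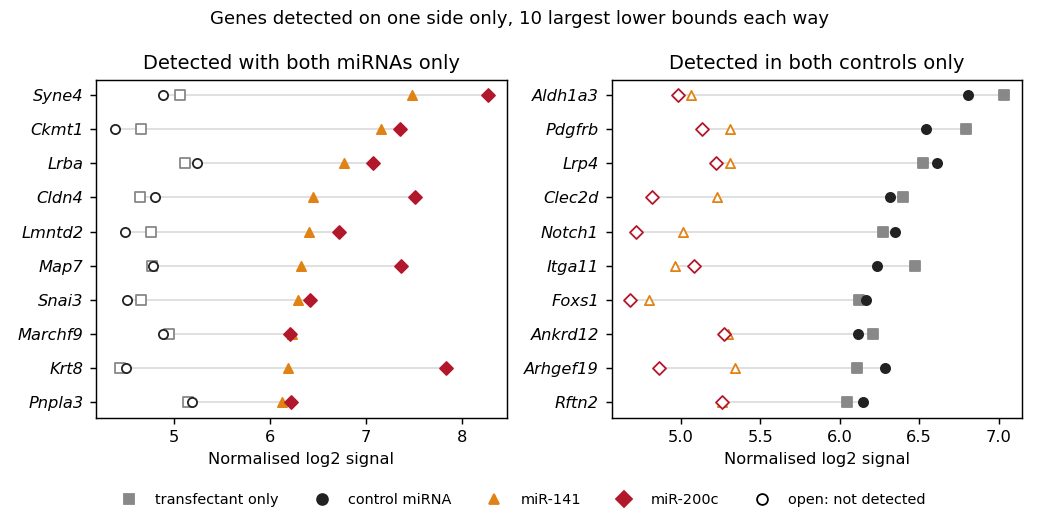
Normalized log2 signal (horizontal) on each array for the 10 genes with the largest lower bounds that were detected with both miRNAs alone (left) and in both controls alone (right), 1 row per gene. Open symbols are arrays on which the gene was not detected. Syne4 and Krt8 reach the highest signals on the left, and Aldh1a3 and Pdgfrb on the right.

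The called genes were not equally far from the controls with miR-141 and miR-200c. Of the 94 higher genes, 65 lay farther from the controls with miR-200c and 29 with miR-141, and 65 had miRNA arrays within 1.5-fold of each other. A 1.5-fold lead was found for miR-200c in 27 and for miR-141 in 2. Those 2 were the cathepsin gene Ctsw, chosen after its values were seen, at 8.25 under miR-141 and 7.10 under miR-200c, and Rgs16, a regulator of G protein signalling, at 7.06 and 6.42. Of the 108 lower genes, 75 lay farther with miR-200c and 33 with miR-141, with a 1.5-fold lead in 13 and 1. The controls were within 1.5-fold of each other in 89 of the 94 and 98 of the 108. No such share over all genes is given for comparison, so these counts do not set the called genes apart from the rest. Other detected probes were at hand for 16 of the 94 higher genes and 27 of the 108 lower genes. Of these probes, 17 of 19 shared the direction for the higher genes and 30 of 31 for the lower genes. Without overlap of the sides, at any size and not by the 1.5-fold rule, were 16 and 27 of these probes. For these probe counts, too, no share over all genes is given.

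At the edge of the rule, Rgs16 and Cd14 lay just inside on the upper side, each with a gap of 0.59, and Ciart and Zkscan6 just outside at 0.58. On the lower side Qsox1 at 0.59 and Il11ra2 at 0.59 were inside, and Prrc1 and Gpd1 at 0.58 were outside.

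The p38 and JNK kinase list (23 detected), the NRF2 and antioxidant list (27), the p53 and senescence list (15) and the cell cycle list (30) each had 0 members apart by 1.5-fold, with medians of 0.02, -0.09, 0.08 and 0.08. Since 1.22% of all genes lay above and 1.4% below by that size, counts of 0 in lists this short do not set them apart from the background. With median scaling or the authors' values 1 NRF2 list member lay below. In the NRF2 list the widest gap was that of Hmox1, heme oxygenase 1, at a side difference of -1.19 and a gap of 0.57. Markers of muscle (2 detected), adipocytes (2), neurons (5) and endothelium (4) also had 0 members apart by 1.5-fold. Their part in the differences above was not tested.

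Zeb1 and Zeb2 bind the E-box CACCTG, which reads CAGGTG on the opposite strand. Promoter windows from 250 bases before to 50 bases after each start site in RefSeq were searched for it on both strands. The motif occurred in 6640 of 32851 windows in the whole table (20.2%) and in 1385 of 8141 windows of detected genes (17.0%). Windows of the higher genes held it in 42 of 93 cases (45.2%), and windows of the lower genes in 13 of 106 (12.3%). Of the 94 higher genes 30 were detected with the miRNAs only, and of the 108 lower genes 21 in the controls only. These entered through the side where they were bright, and the shares carry that choice. All genes detected with both miRNAs only held the motif in 27 of 81 windows (33.3%), and those in both controls only in 14 of 78 (17.9%). Counted by gene, it was found for 39 of 73 higher genes (53.4%), 10 of 76 lower genes (13.2%) and 1256 of 6357 detected genes (19.8%). Windows were at hand for 77.7% of the higher and 70.4% of the lower genes, too few to stand for the full sets. Among higher genes with a gap of 2-fold or more the share was 19 of 28 windows (67.9%), and with a gap of 1.5 to 2-fold 23 of 65 (35.4%). Where the sides overlapped it was 755 of 4594 (16.4%). Other E-boxes differed less, with CAGCTG in 20.4% of windows of higher genes against 14.3% of detected genes, CACGTG in 9.68% against 10.5% and CATCTG in 11.8% against 11.1%. In windows of lower genes CAGCTG stood at 18.9%. Mean GC content was 61.1% in the higher and 60.8% in the detected windows. The median count of the base pair CG per window was 18 in the higher, 15.5 in the lower and 21 in the detected windows. Whether base composition bears on the motif shares was not tested. Epithelial genes that stayed undetected held the motif too, in 19 of 23 windows (82.6%) of the 18 among 28 genes with a window. A match is a string of letters and not a measured binding site.

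The windows of epithelial genes with wide gaps are printed here to show where these motifs lie, read 5′ to 3′ on the strand of the gene with each motif in capitals.
Lamb3: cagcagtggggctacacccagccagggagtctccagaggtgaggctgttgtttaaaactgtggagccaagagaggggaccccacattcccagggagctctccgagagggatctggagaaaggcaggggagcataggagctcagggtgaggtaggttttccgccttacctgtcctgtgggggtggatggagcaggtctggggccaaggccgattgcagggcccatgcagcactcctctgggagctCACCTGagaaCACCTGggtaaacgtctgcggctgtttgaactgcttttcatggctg
Cldn4: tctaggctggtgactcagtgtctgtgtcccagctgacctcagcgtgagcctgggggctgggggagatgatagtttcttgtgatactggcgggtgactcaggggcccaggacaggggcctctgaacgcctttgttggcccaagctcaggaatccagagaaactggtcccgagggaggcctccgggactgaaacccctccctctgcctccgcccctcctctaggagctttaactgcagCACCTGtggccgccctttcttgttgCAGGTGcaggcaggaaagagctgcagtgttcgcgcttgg
Krt8: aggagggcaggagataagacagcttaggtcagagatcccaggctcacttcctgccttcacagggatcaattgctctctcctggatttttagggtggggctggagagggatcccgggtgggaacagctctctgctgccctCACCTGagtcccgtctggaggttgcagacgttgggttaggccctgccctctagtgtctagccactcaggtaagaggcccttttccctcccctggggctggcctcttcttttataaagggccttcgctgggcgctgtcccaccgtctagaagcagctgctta
Map7: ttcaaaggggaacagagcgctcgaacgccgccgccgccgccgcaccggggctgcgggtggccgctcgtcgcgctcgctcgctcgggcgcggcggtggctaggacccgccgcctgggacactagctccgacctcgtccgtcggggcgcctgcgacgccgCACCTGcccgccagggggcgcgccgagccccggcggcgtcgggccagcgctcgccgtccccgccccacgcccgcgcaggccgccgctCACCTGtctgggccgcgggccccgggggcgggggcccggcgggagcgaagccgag
Positions are counted from 0 at the start site, at the first base of the motif. Lamb3 (chr1:193301993-193302292, plus strand, the second of 2 windows of this gene) has motifs at -6 and 4, and the first window has none. Cldn4 (chr5:134946885-134947184, minus strand) has motifs at -14 and 11, Krt8 (chr15:102004293-102004592, minus strand) at -111, and Map7 (chr10:20148670-20148969, plus strand) at -92 and -5. Of the 20 higher genes with the widest gaps, 14 had a window, and 12 of these held the motif in at least 1 window, while those of Ckmt1 and Edn1 did not.

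**Figure D5:**
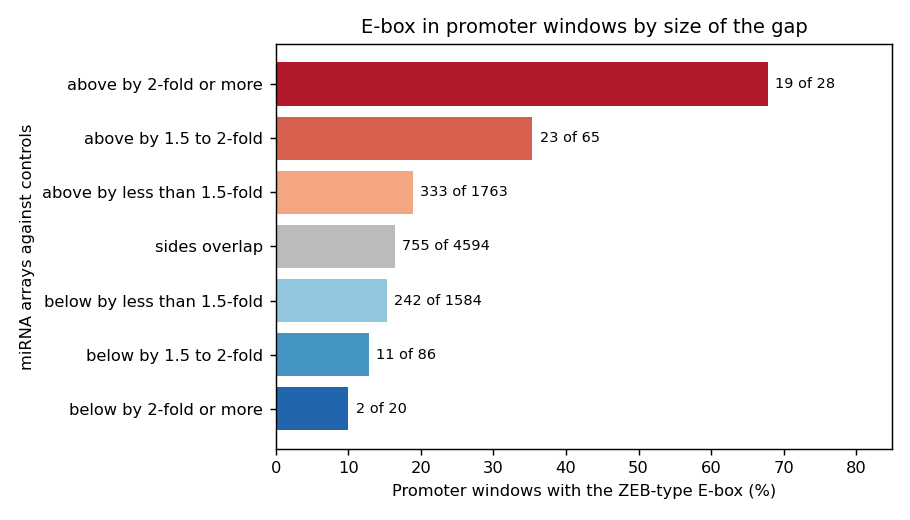
Share of promoter windows (percent, horizontal) that hold CACCTG or CAGGTG, by the size and direction of the gap between miRNA arrays and controls, with counts beside each bar. The share is 67.9% in the windows of genes above by 2-fold or more, 16.4% where the sides overlap and 10% in genes below by 2-fold or more.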

How the data were processed

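Gene expression was measured on 4 Illumina bead arrays, 1 per treatment. Per the file headers, the deposited non-normalized table gives an average bead signal intensity and a detection p-value per probe and array. GenomeStudio is named in the submitters' processing notes, without version. A second deposited table holds processed intensity values whose method is not given in the sources used here. Each processed column followed its array's raw signals on a line (largest residual 0.0113), with slopes from 0.692 to 1.51 and medians of 46.3, 44.7, 45.0 and 45.8 for transfectant only, control miRNA, miR-141 and miR-200c, so its values were linear and not centred by gene. The number of value columns without a sample was 0.

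Here neqc (limma 3.58.1, R 4.3.3) corrected background by normexp, with an offset of 16, then quantile-normalized all arrays jointly and took log2. Quantile normalization removes a shift shared by most genes, and the offset shrinks differences of dim probes. Of 46632 probes, 29976 had 1 gene symbol in the platform annotation, 10 several and 16646 none. Entrez identifiers placed 29921 in RefSeq (GRCm38.p6), and 0 symbols changed. The probe with the highest mean per gene was kept, for genes with a detection p under 0.01 on any array. limma (lmFit, eBayes) compared 2 arrays with 2 at an adjusted p of 0.05 and was tested on simulated data. Tables used Python 3.11.15 with pandas 2.3.3 and numpy 2.4.6, and figures matplotlib 3.10.9.

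Genes named were the 15 widest gaps each way among genes detected on all 4 arrays, the 10 largest bounds each way among genes detected on one side, up to 5 members apart per list, Zeb1, Zeb2, Cdh1, Vim, Fn1, Mapk14 and Keap1, and the 2 genes each side of the gap threshold. Other list members are named to account for their list. The members and the 26 gene lists were chosen with earlier results of these data known. Alternatives changed the background correction, scaling, offset, probe choice, detection threshold, gap size and arrays included.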

Additional observations from a re-analysis of the deposited data

How the results depend on the processing

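With 94 genes higher and 108 lower as reported, the counts were 61 and 67 without background correction, 60 and 73 with the authors' processed values, 66 and 45 with median scaling, 55 and 63 with an offset of 50, 56 and 80 with detection required on all 4 arrays, 29 and 28 with a 2-fold gap, and 78 and 97 with undetected values at their bound. Another probe choice gave 93 and 107, and a detection threshold of 0.05 gave 96 and 109. Leaving out 1 array gave 170 to 293 higher and 165 to 328 lower genes, as fewer orderings were then required. Of the 94 higher and 108 lower genes, 57 and 44 were called again with median scaling, 61 and 67 without background correction, 59 and 70 with the authors' values, and 55 and 63 with an offset of 50. Of 79 named genes apart by 1.5-fold, many of them named for wide gaps, all 79 kept their direction and stayed without overlap under these 4 settings. Of the 79, 57 to 67 kept the 1.5-fold gap. Detection on one side fell from 83 to 16 genes with the miRNAs and from 91 to 10 in the controls when the other side had to have a p over 0.05. The 71 genes called by limma became 158 with an intensity trend, 123 without background correction and 38 with detection on all 4 arrays, and 0 to 195 with 1 array left out. The cause of these shifts in the limma count was not tested. The E-box share in windows of higher genes was 46.2% to 52.5%, and of lower genes 12.8% to 18.3%, under the other normalizations. No paired analysis was possible because each treatment has 1 array. Precision is limited by the number of arrays and, for genes detected on some arrays alone, by signals near background. List medians kept their sign under every scaling except for epithelial regulators (0.07, then -0.02 with median scaling) and endothelial markers (0.00, then -0.06 and -0.02 with median scaling and the authors' values).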

Other observations

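Some genes outside the lists and the rule for named genes also lay apart by 1.5-fold, and the following were chosen after their values were seen. Above both controls, Il23a, a subunit of interleukin 23, was at 4.40 and 4.61 in the controls, both undetected, and at 5.81 and 6.42 with miR-141 and miR-200c, at least 1.40-fold higher. Ifnlr1, the receptor chain for interferon lambda that epithelial cells carry, lay above both controls with a side difference of 1.63, at 7.87 and 8.88 with the miRNAs. Slpi, a secreted antiprotease of mucosal surfaces, was at 7.18 and 6.55 against 7.91 and 7.99, although its controls differed by -0.63 (control miRNA minus transfectant only). Kng1, the kininogen gene, showed the widest split between the miRNAs among the higher genes, at 7.72 and 9.54 on the miR-141 and miR-200c arrays, against 6.86 and 6.80 in the controls. None of Ifnlr1, Slpi and Kng1 was called by limma (adjusted p = 0.0721, 0.0866 and 0.152), whereas Il23a was (adjusted p = 0.0268).

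Below both controls, Emilin1, an elastic fibre glycoprotein, was at 5.93 and 5.38 with the miRNAs, a side difference of -1.35. Copz2, a subunit of the COPI vesicle coat, was at 8.39 and 8.42 against 7.30 and 6.77, with 2 further probes apart in the same direction. Plxnd1, a semaphorin receptor, was at 8.85 and 9.14 against 7.72 and 7.89, and H2-DMa, a peptide exchange factor of MHC class II, was at 6.84 and 6.77 against 5.77 and 5.73. Xbp1, a transcription factor of the unfolded protein response, was at 9.76 and 9.91 against 9.08 and 9.12.

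Past the gap but outside the counts, for want of detection on both arrays of the brighter side, were Rerg, detected with transfectant only at 5.65, and Sash3, detected with miR-200c at 5.54.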
